A study of Homo sapiens with 2 samples.

Results

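ISG15 and the enzymes that attach it to proteins and remove it again were followed in Huh-7 cells, an established human hepatoma line, after exposure to interferon-alpha. The 7 genes, ISG15, UBA7, UBE2L6, HERC5, HERC6, USP18 and ARIH1, were chosen by name, with earlier results of these data known. All 14 probe sets annotated to them were taken from the 54613 non-control probe sets of the array. Of these genes 6 had at least 1 probe set annotated to them alone, among 19775 such genes in all. Both UBA7 probe sets are also annotated to the microRNA gene MIR5193 and were kept apart. The treated culture was kept for 6 hours in medium with 100 U/mL of recombinant human IFN-alpha 2b, and the untreated culture had its medium exchanged. Each condition was 1 flask of the same cell line on 1 array, so no difference below has a replicate check, no p-value is given, and counts and ranks describe these 2 arrays only.

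ISG15 is a ubiquitin-like protein that is joined to lysines of other proteins by a chain of enzymes parallel to that of ubiquitin. UBA7 (also UBE1L) is its activating enzyme, UBE2L6 (UBCH8) carries it, HERC5 is its main ligase in human cells, HERC6 has that role in mouse, and ARIH1 is a ubiquitin ligase of the RING-between-RING class that has also been linked to ISG15. USP18 cleaves ISG15 from its targets and, independently of that activity, binds the receptor chain IFNAR2 and dampens type I interferon signalling. Type I interferon induces many genes of this system through ISGF3, a transcription factor complex that binds the interferon-stimulated response element (ISRE).

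The deposited values are linear intensities. Values under 48.46, the 50th percentile over both arrays, were set to that floor ahead of the log2 step, and a gene was counted if its brightest probe set was above the floor on at least 1 array. A fold against a value below the floor is a lower bound. Ranks below count such bounds at their floored value, so a rank given for another gene also depends on the floor. Array medians were 48.04 with interferon and 48.84 untreated. Hepatocyte and hepatoma markers were bright on both arrays, with medians of 7780 over 10 genes with interferon and 6838 untreated. Of 6 leukocyte markers 4 were counted, the brightest being LYZ at 2271 with interferon and 2064 untreated, and PTPRC and CD3E did not reach the floor on either array. Of 4 endothelial markers 2 were counted, up to 152.4 with interferon and 158.0 untreated, and CDH5 and KDR were below the floor. Of 5 stellate and fibroblast markers 4 were counted, up to 559.9 with interferon and 544.3 untreated, and DCN was below the floor. The part of these markers in the results was not tested. The 18 hybridisation controls, labelled transcripts added to each hybridisation mix, were without exception brighter on the interferon array, by a median log2 of 0.43 (range 0.14 to 0.56). Subtracting this 0.43 is the scaling called hybridisation-control centring below.

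Of the 6 genes with a probe set of their own, 5 passed 2-fold upward after interferon and 0 passed it downward. In the values as deposited, the same upward change was seen in 0.43% of all 13269 counted genes, and the downward one in 0%. For the 6 genes the median log2 ratio of interferon over untreated was 2.15, and for all counted genes it was 0.03. By probe set, 5 of the 11 counted ones were at least 2-fold higher, against 0.366% of all 28106 counted probe sets. Because the genes were chosen with earlier results of these data known, these shares describe the group and are not a test of it. The modifier, the carrier enzyme, both HERC proteins and the protease were the higher genes, and ARIH1 was the exception.

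**Figure D1:**
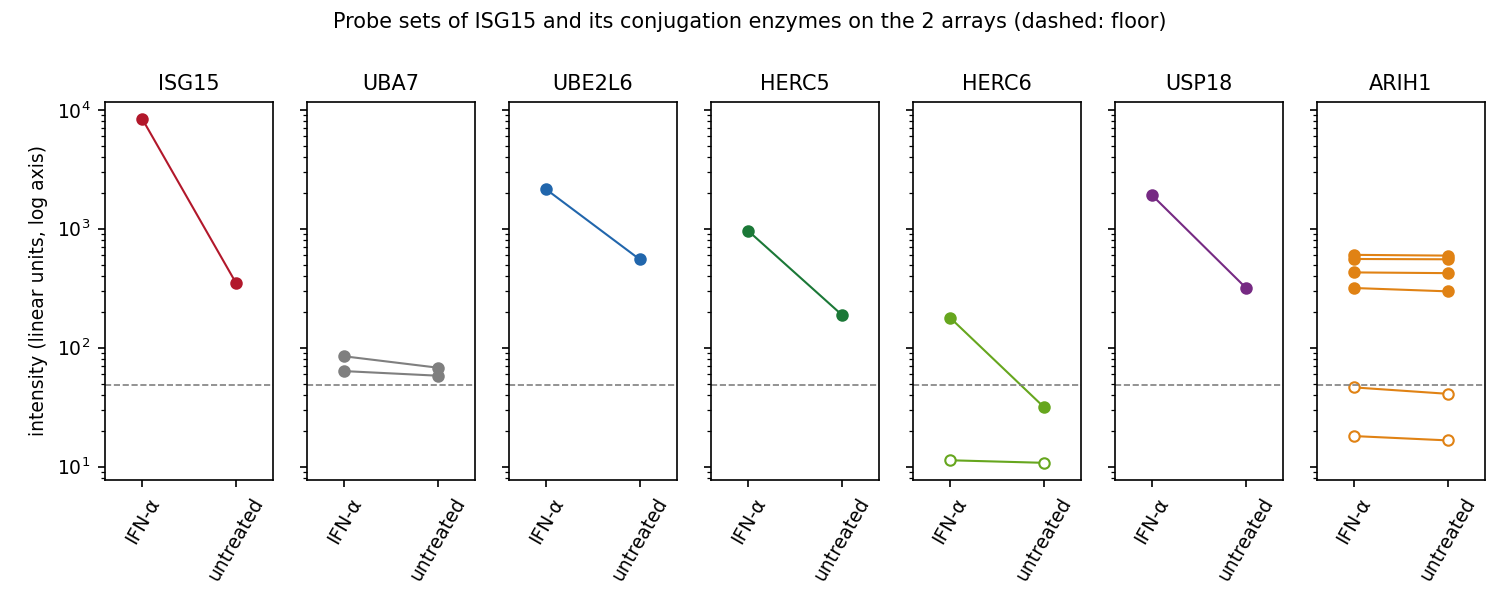
Intensity (log axis) of every probe set of the 7 genes on the interferon array (left in each panel) and on the untreated array (right), each line 1 probe set, open circles below the floor of 48.46 (dashed) on both arrays. ISG15, UBE2L6, HERC5 and USP18 lie above the floor on both arrays and fall steeply from left to right, the upper HERC6 probe set crosses the floor, and the UBA7 and ARIH1 lines are nearly flat.

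ISG15, the modifier itself, had an intensity of 8332 on the interferon array and 351.2 on the untreated array. Its log2 ratio of 4.57 (23.7-fold) was the second highest of the 13269 counted genes. Among 604 probe sets of like brightness (mean log2 intensity within 0.25) 95% of the log2 ratios fell between -0.04 and 0.29. ISG15 has 1 probe set, whose suffix _s_at marks probes that can match several transcripts, so no other probe set repeats the value.

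The promoter of ISG15 is shown because the gene has the highest ratio of the group and its ISRE is a textbook one. The 250 bases before its start (RefSeq, GRCh38.p14, chr1:1013247-1013496, plus strand) follow 5′ to 3′, with matches to the ISRE core GAAANNGAAA (TTTCNNTTTC on the other strand) in capitals.
ISG15: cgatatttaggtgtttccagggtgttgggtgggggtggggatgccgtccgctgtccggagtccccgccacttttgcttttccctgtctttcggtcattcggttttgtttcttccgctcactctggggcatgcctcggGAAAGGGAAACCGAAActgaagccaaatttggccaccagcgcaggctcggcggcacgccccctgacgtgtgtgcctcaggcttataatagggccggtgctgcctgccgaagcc
The capitals hold 2 overlapping matches, which begin at -113 and -107, counting the last base before the start as -1. Of 35116 RefSeq windows of this length, 3.02% held at least 1 match on either strand. Windows were listed for 5 of the 7 genes (ISG15, UBE2L6, HERC5, HERC6 and ARIH1), and 2 of them, ISG15 and HERC5, held a match. None of the 5 held the STAT dimer motif TTCNNNGAA, which 6.57% of all windows held. Of the 48 genes at least 2-fold higher that had a window, 28 (58.3%) held the ISRE core, against 3.71% of all 27305 genes with a window. The STAT dimer motif was also more frequent among the 48, held by 13 (27.1%) against 8.09% of all genes with a window. These are unlike sets of genes. The 48 are counted genes, while the 27305 also hold genes that were not counted or had no probe set of their own. The shares among all counted genes were not computed. A match is a run of letters and not a measured binding site, and no binding was measured here.

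UBE2L6, the enzyme that carries ISG15 to the ligases, had 2138 with interferon and 551.8 untreated, a log2 ratio of 1.95 (3.87-fold) that ranked 30th of the 13269 counted genes. The 1014 probe sets of like brightness had a central 95% of -0.07 to 0.27. UBE2L6 is listed with 2 start sites, and neither window held the ISRE core.

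UBA7, the enzyme that starts the chain, was low on both arrays. Its brighter probe set had 84.6 with interferon and 67.9 untreated (log2 0.32), and the dimmer one had 63.6 with interferon and 58.1 untreated (log2 0.13). Both ratios lay inside the central 95% of probe sets of like brightness, which ran from -0.38 to 0.39 around the brighter and from -0.37 to 0.35 around the dimmer. They were above 0 as deposited and after median, quantile and lowess scaling, but were -0.11 and -0.30 after hybridisation-control centring. With 1 array per condition these values do not show whether UBA7 differed.

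HERC5 and HERC6, neighbouring genes on chromosome 4, were both higher. HERC5 had 958.4 with interferon and 189.2 untreated, a log2 ratio of 2.34 (5.07-fold), rank 26. Its only probe set was above the floor on both arrays, and 2081 probe sets of like brightness had a central 95% of -0.14 to 0.29. HERC6 had 178.3 with interferon and 31.8, below the floor, untreated, so that it was at least 3.68-fold higher (log2 1.88). Its place in the order of genes is not given, since the bound is set by the floor. It moves with the floor, to a log2 of 2.48 for a 40th percentile floor and of 1.27 for a 60th percentile one. The other HERC6 probe set did not reach the floor on either array, at 11.3 with interferon and 10.8 untreated.

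The promoters of this pair are shown side by side because both genes were higher while only the HERC5 window held the ISRE core. Each is the 250 bases before the start, 5′ to 3′, plus strand, RefSeq GRCh38.p14, at chr4:88456869-88457118 for HERC5 and chr4:88378602-88378851 for HERC6, with ISRE core matches in capitals.
HERC5: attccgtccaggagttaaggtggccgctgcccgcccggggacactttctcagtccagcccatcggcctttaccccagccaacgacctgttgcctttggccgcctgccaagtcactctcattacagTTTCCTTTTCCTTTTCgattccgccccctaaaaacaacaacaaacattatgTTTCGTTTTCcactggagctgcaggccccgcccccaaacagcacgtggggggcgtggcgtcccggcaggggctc
HERC6: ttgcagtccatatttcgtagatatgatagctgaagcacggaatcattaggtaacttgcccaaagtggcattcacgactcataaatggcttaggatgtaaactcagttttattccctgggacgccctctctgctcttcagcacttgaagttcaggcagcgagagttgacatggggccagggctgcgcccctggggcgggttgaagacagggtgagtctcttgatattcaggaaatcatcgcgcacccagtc
HERC5 holds 3 matches, all on the strand opposite to the gene, of which those beginning at -125 and -119 overlap and the third begins at -74. The absence of the letters from the HERC6 window concerns these 250 bases only.

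USP18, the protease and receptor-level brake, had 1908 with interferon and 320.2 untreated. Its log2 ratio of 2.58 (5.96-fold) ranked 18th, and 1305 probe sets of like brightness had a central 95% of -0.09 to 0.29. USP41P, a pseudogene closely related to USP18 in sequence, had no probe set of its own in the annotation used, and whether it adds to the USP18 value was not tested. The receptor chain IFNAR2, to which USP18 binds, had 411.5 with interferon and 445.3 untreated (log2 -0.11), although its 3 probe sets ran from -0.11 to 0.27.

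ARIH1 gives the best repeated measurement of the group. Its 4 probe sets above the floor had 603.0, 556.6, 429.3 and 317.5 with interferon, against 594.4, 553.4, 423.3 and 297.6 untreated. The log2 ratios were 0.02, 0.01, 0.02 and 0.09, a range of 0.08 between probe sets, and the probe set used for the gene ranked 7118th of 13269. Between 28.5% and 69.3% of probe sets of like brightness had a lower ratio than these 4. The sign of the ratio of the brightest one turned to -0.06 after quantile, -0.04 after lowess and -0.41 after hybridisation-control scaling. The other 2 ARIH1 probe sets had 46.4 and 18.1 with interferon, against 41.0 and 16.6 untreated, all under the floor.

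**Figure D2:**
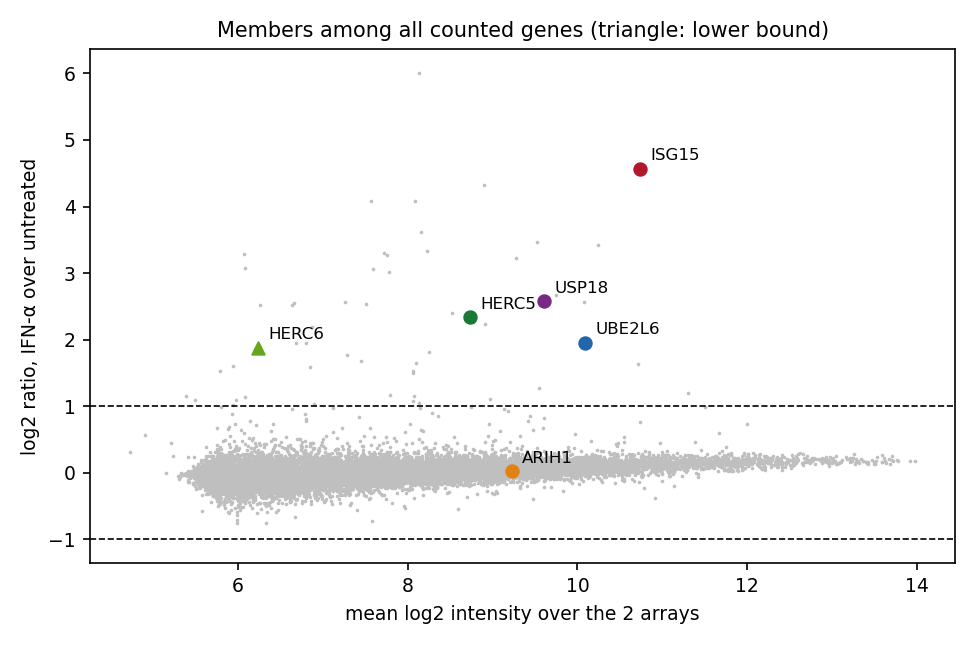
Log2 ratio of interferon over untreated against mean log2 intensity over the 2 arrays, for all 13269 counted genes (grey) and the 6 genes of the ISG15 system with a probe set of their own, with dashed lines at 2-fold and a triangle for the lower bound of HERC6. ISG15, USP18, HERC5, UBE2L6 and HERC6 stand above the upper line and ARIH1 lies in the band around 0.

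Relatives of these enzymes in the ubiquitin system, and proteins linked to ISG15, were read from lists. Of 98 related genes in 9 lists, 77 had a probe set of their own and 76 were counted. The median log2 ratio of the 76 was 0.12, beside 0.03 over all counted genes, a comparison not matched for brightness. The ranges given above for probe sets of like brightness lay mostly above 0 around UBE2L6, from -0.07 to 0.27. Around the dimmer UBA7 probe set, near the floor, the range lay on both sides of 0, from -0.37 to 0.35. Whether the 0.12 differs from the ratios of genes of like brightness was not tested. Of the 76, 4 passed 2-fold upward and 0 downward. The 4 were TRIM25, MX1, EIF2AK2 and RIGI. TRIM25, a ligase that can also use ISG15, had 2180 with interferon and 341.3 untreated (log2 2.68), and its other probe set had a log2 ratio of 1.60.

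None of the 7 counted activating enzymes of other modifiers reached 2-fold, with log2 ratios from -0.11 for ATG7 to 0.31 for UBA6. UBA1, the main ubiquitin-activating enzyme and a relative of UBA7, had 1873 with interferon and 1724 untreated (log2 0.12). UBA6, which activates ubiquitin and FAT10, had 394.5 with interferon and 318.8 untreated. Among 6 counted carrier enzymes the log2 ratios ran from -0.05 for UBE2R2 to 0.24 for UBE2E1. Their single probe sets ran from -0.06 for UBE2R2 to 0.25 for UBE2Z. UBE2L3, the closest relative of UBE2L6, had no probe set of its own in the annotation used.

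HERC4, a small HERC protein like HERC5 and HERC6, had 186.3 with interferon and 164.4 untreated (log2 0.18). The other counted HERC genes were HERC1 at -0.04 and HERC2 at 0.22, although the lower of the HERC2 probe sets was at -0.11, and HERC3 had no probe set of its own. Among the 10 counted RING-between-RING ligases, ARIH2, the nearest relative of ARIH1, was at 0.13 with its 5 probe sets from -0.16 to 0.13. The highest of them was RBCK1 (HOIL-1), a subunit of the linear ubiquitin chain assembly complex, with 971.0 with interferon and 611.7 untreated. Its log2 ratio was 0.67 (1.59-fold), and its 3 probe sets ran from 0.18 to 0.67. RNF31 (HOIP), the catalytic subunit of the same complex, was the lowest at -0.17.

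The other modifiers of the ubiquitin family had log2 ratios between -0.03 for URM1 and 0.20 for UFM1 in 9 counted genes, none past 2-fold. The other URM1 probe set was at -0.09. UBB, a polyubiquitin gene, had 12165 with interferon and 10664 untreated (log2 0.19). The 12 counted genes in the list of USP family deubiquitinases ran from 0.03 for USP11 to 0.27 for USP33, each read by its brightest probe set. Other probe sets of these genes went further, up to 0.51 for USP34 and down to -0.14 for USP47. In the list of 8 other enzymes and partners linked to ISG15, which holds TRIM25 and 6 proteases of the USP family, USP21 was the lowest at -0.07, and the median over all 8 was 0.04. Single probe sets in that list went lower, to -0.19 for USP2 and -0.14 for USP13. The 5 counted partners of USP18 and of free ISG15 ran from -0.11 for IFNAR2 to 0.18 for SKP2, a ubiquitin ligase subunit that targets USP18.

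Among 17 counted proteins reported as targets of ISG15, 3 were at least 2-fold higher and the median log2 ratio was 0.12. The 3 are themselves interferon-induced antiviral genes: MX1 at least 16.9-fold (818.2 with interferon and 44.0, below the floor, untreated), EIF2AK2 12.3-fold and RIGI 5.90-fold. The log2 ratios of the 3 EIF2AK2 probe sets spread widely, between 0.38 and 3.62. Those of the 3 RIGI probe sets ran from 2.56, the one used, to 3.41. CHMP5, an ESCRT subunit in virus budding, came next at 0.48 with its other probe set at 0.57. MAPK3 was the lowest at -0.12, although 1 EIF4E2 probe set was at -0.16.

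**Figure D3:**
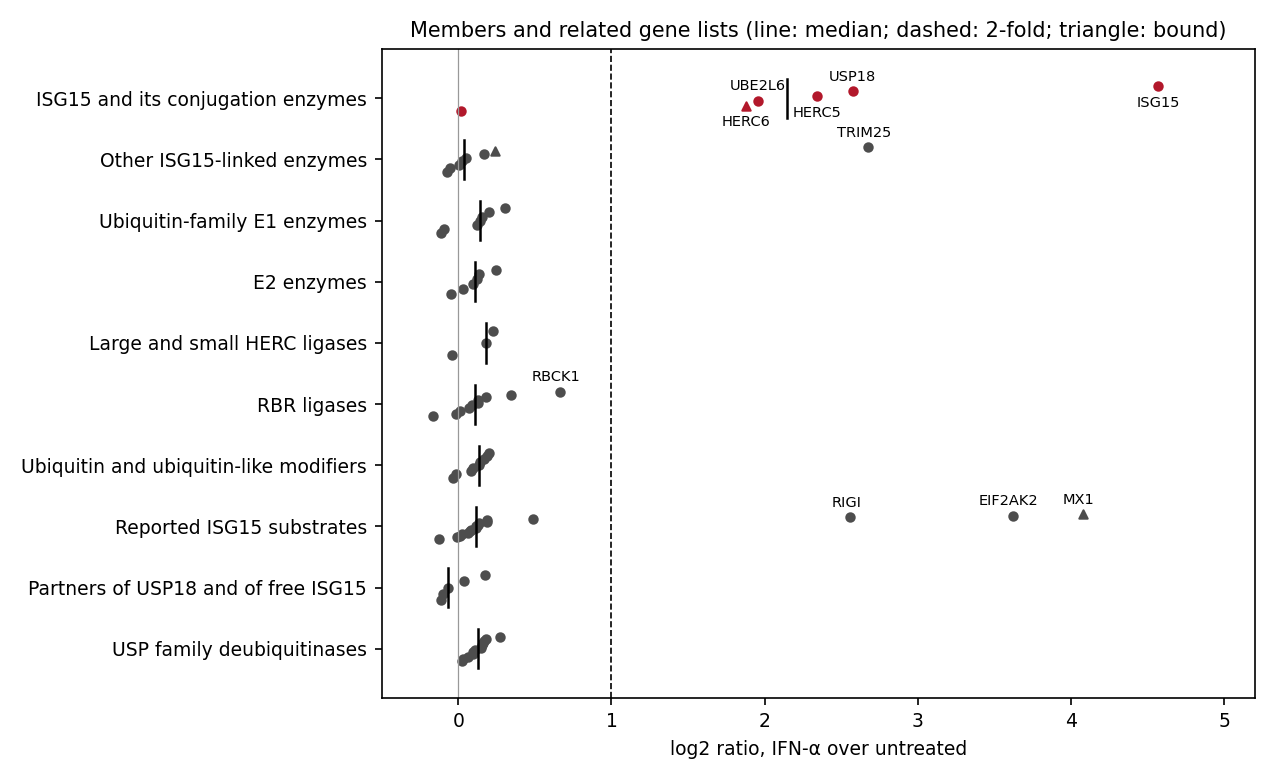
Log2 ratio of interferon over untreated for the 6 genes of the ISG15 system (red, top) and the counted genes of the 9 related lists below (grey), 1 point per gene, triangles for lower bounds, a black line at each median and a dashed line at 2-fold. The median lies at 2.15 for the ISG15 system and between -0.07 and 0.18 for the related lists.

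Genes beside the members on the chromosome were also read, 3 protein-coding genes on each side in RefSeq order, a comparison made after the members' values were seen. Of 36 such neighbours that are not members, 21 were counted and none was 2-fold higher or lower as deposited. Only HES4 and PPM1K exceeded a log2 ratio of 0.5, as 0.927% of all counted genes did, and the other 19 lay between -0.12 and 0.27. These are values of the brightest probe set of each gene, and another PEX26 probe set was at 0.33. HES4, a transcriptional repressor gene next to ISG15, had 602.4 with interferon and 304.0 untreated (log2 0.99, rank 60). Its probe set ends in _x_at, a mark for possible cross-hybridisation, and its ratio was 1.01 after median scaling, which is past 2-fold, and 0.56 after centring on the hybridisation controls.

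PPM1K, a mitochondrial protein phosphatase gene next to HERC6, was read by 2 probe sets above the floor, while its other 3 were below it on both arrays. The brighter had 441.0 with interferon and 243.8 untreated (log2 0.86, rank 70), and the dimmer had 283.8 with interferon and 152.8 untreated (log2 0.89). Both stayed above 0 after centring on the hybridisation controls, at 0.43 and 0.47. ABCG2, on the other side of PPM1K, was at -0.05, and AGRN, on the other side of ISG15 from HES4, at 0.24. The 4 AGRN probe sets ran from -0.10 to 0.24. Neither the HES4 nor the PPM1K window of 250 bases held the ISRE core.

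**Figure D4:**
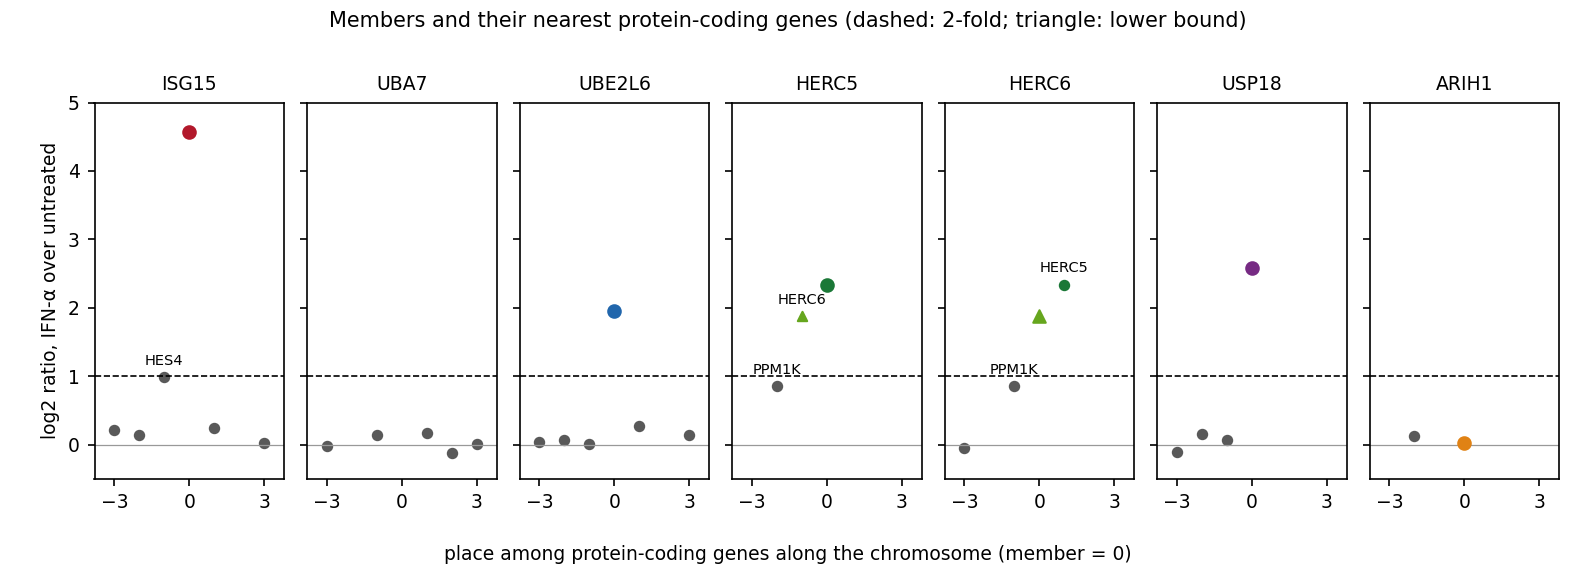
Log2 ratio of interferon over untreated for each of the 7 genes (place 0, no point for UBA7) and for the counted protein-coding genes up to 3 places away on its chromosome (dark grey), with a dashed line at 2-fold and triangles for the lower bound of HERC6. HES4 at 0.99 beside ISG15 and PPM1K at 0.86 beside HERC6 stand apart from the other neighbours, which lie between -0.12 and 0.27.

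For 4 of the members the counted genes with the nearest log2 ratio were also read. IRF9 (4.33) and IFIT5 (4.08) were nearest to ISG15, from which they differed by -0.24 and -0.49. ZC3HAV1 (2.57) and RIGI (2.56) were nearest to USP18, PARP12 (2.40) and IFITM2 (2.26) to HERC5, and SP100 and BATF2 (both 1.95) to UBE2L6. The RIGI value is the lowest of its 3 probe sets, which reached 3.41. Likeness of 1 ratio over 2 arrays is all that this ranking measures.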

How the data were processed

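RNA of 1 interferon-alpha-treated and 1 untreated Huh-7 culture was measured on Affymetrix arrays. The authors deposited 1 intensity per probe set and array on a linear scale, made with GCOS, per the submitters' processing notes. For its version, background correction, probe summary and scaling, the sources used here give nothing. The number of arrays limits the precision. Gene names for probe sets came from GEO's platform table, with symbols updated through the gene ID to RefSeq. Of 54613 non-control probe sets, 41091 had 1 gene, 1801 several and 11721 none named.

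Intensities were floored at the 50th percentile and log2-transformed, and each gene was read by its brightest probe set (mean log2 over the arrays). Counts used a threshold of 2-fold. The members and gene lists were chosen with earlier results of these data known. Genes named are the members, list members past 2-fold, the highest and lowest of each list, the closest relatives and the nearest ratios. Picked outside that rule, after their values were seen, were UBB, CHMP5, the named cell type markers and the chromosomal neighbours. So were single probe sets of list genes, such as those of HERC2, USP34 and USP47. Procedures were tested on simulated data, with changes planted only in genes well above the floor. Lower bounds, as for HERC6, and changes near the floor, as for UBA7, were not covered by that test. Floors, pseudocounts, scalings, probe set choices and thresholds were varied. Promoter windows came from RefSeq (GRCh38.p14). Python 3.11.15, numpy 2.4.6, pandas 2.3.3 and statsmodels 0.14.6 were used.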

Additional observations from a re-analysis of the deposited data

How the results depend on the processing

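The 6 members with a probe set of their own gave 71 log2 ratios under the alternatives, and all 71 stayed on the same side of 2-fold as reported. Many of the 71 could not move. All members but ARIH1 have 1 counted probe set, so the choice of probe set leaves their ratios as they are. The other floors change only HERC6, since the values used for the rest lie above them. The 71 are therefore not independent checks. They ran from 4.14 to 4.59 for ISG15, from 2.15 to 2.60 for USP18, from 1.91 to 2.36 for HERC5, from 1.53 to 1.98 for UBE2L6, from 1.27 to 2.48 for HERC6 and from -0.41 to 0.04 for ARIH1. With _x_at and _s_at probe sets left out, ISG15 had no value, and 4 of 5 counted members were at least 2-fold higher. At a threshold of 4-fold, 3 members and 3 member probe sets remained, namely ISG15, USP18 and HERC5, in place of 5. The median log2 ratio of the members, reported as 2.15, moved to 2.41 for a 40th percentile floor and to 2.39 for a pseudocount of 1 in place of the floor. It was 1.72 after centring on the hybridisation controls, which subtracts 0.43 from every log2 ratio and moves the median of all counted genes to -0.39. That median came to 1.95 when _x_at and _s_at probe sets were left out and also to 1.95 with UBA7 read from its probe sets of several genes. The count of related genes past 2-fold was 4 under all 9 alternatives run for it. The values below the floor, those of HERC6 untreated among them, limit what can be said of size. No paired analysis was possible because each condition has 1 array.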

Other observations

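Some deposited values are tied between the arrays in a way that touches ARIH1. 1 of its probe sets had 429.3 with interferon and 423.3 untreated, a difference of exactly 6 to within 2e-06. Of the 54613 non-control probe sets, 896 differed by a whole number other than 0 at that tolerance, and 2361 had the same value on both arrays. The sources used here do not say how these arose.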
